A study of Mus musculus with 15 samples.

Results

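Calcium signalling genes of the mouse egg were followed from the immature oocyte to metaphase II. The set comprised 10 genes of the calcium signal that starts development at fertilisation: Itpr1, Itpr2, Itpr3, Stim1, Orai1, Trpm7, Atp2a2, Camk2g, Camk2d and Ppp3ca. Members were the probe sets of the array that the platform annotation assigned to exactly 1 of these symbols, which gave 33 of the 45101 probe sets on the array. These covered 9 of the 10 genes, and Itpr1 was not analysed here.

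At fertilisation the sperm causes repeated rises of free calcium in the egg. Inositol trisphosphate (IP3) opens IP3 receptors (Itpr1, Itpr2, Itpr3) in the endoplasmic reticulum, the pump encoded by Atp2a2 returns calcium to that store, and entry across the plasma membrane replaces what is lost. Calcium and calmodulin then switch on the kinase CaMKII (Camk2g, Camk2d) and the phosphatase calcineurin (Ppp3ca), and CaMKII activity in the mouse egg releases the arrest at metaphase II. The machinery for this response is built up while the oocyte matures, when transcription is largely off and stored messages are translated or lost.

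The 15 arrays came from B6D2F1 hybrid females given pregnant mare serum gonadotropin (PMSG), with 150 oocytes in each pool. Mature oocytes at metaphase II (MII) were studied in 5 groups. In vitro matured MII oocytes came from mice of day 20 (d20, n = 3), day 26 (d26, n = 3) and 7 to 8 weeks (adult, n = 2), after 16 h of culture of oocytes collected 48 h after PMSG. In vivo matured MII oocytes came from d26 mice (n = 2) and adults (n = 3) after human chorionic gonadotropin. The reference for maturation was the adult germinal vesicle (GV) oocyte (n = 2), the immature stage with an intact nucleus, which was studied in adults alone. Cumulus cells were removed with hyaluronidase in every group. Poly(A) RNA was captured on oligo(dT) beads and amplified, so a loss of transcripts and a shortening of their poly(A) tails cannot be told apart. No label ties a pool to its animals, so the p-values rest on differences between pools that could be technical.

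Values are log2 intensities after quantile normalization, unless they are called deposited intensities. Differences were tested with limma across 22519 probe sets and called at a Benjamini-Hochberg adjusted p below 0.05. The limits of the arrays touched several results. Median deposited intensity ran from 5.09 to 25.3 between arrays and was highest in the 2 GV arrays. The 4 dimmest arrays were adult in vitro MII replicate 2, d26 in vitro MII replicates 2 and 3, and adult in vivo MII replicate 1, with 2615 to 3042 probe sets above an intensity of 200, against 4882 to 9819 in the other arrays. All 12 oocyte markers lay above the filter level in every group, with a summed normalized intensity of 26500 to 45900 in MII arrays and 71900 to 83200 in GV arrays. Cumulus markers (13 of 15 measured) summed to 393 to 592 in MII arrays and 254 to 280 in GV arrays. Leukocyte markers (14 of 14 measured) summed to 473 to 918 in adult in vivo MII arrays, 139 to 278 in the other MII arrays and 177 to 196 in GV arrays. Markers of oviduct and other epithelium (10 of 10 measured) summed to 2100 to 5330 in MII arrays and 1400 to 1740 in GV arrays, with Cdh1, a gene oocytes also express, the brightest of them. Stroma markers (9 of 9 measured) reached 268 and erythrocyte markers (2 of 5 measured) reached 54. The part of these other cells in the results was not tested.

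Of the 33 member probe sets, 21 passed the filter on low signal, a mean of 3.07 or more over the 15 arrays, and these covered 8 genes. Tested were 5 of 6 probe sets of Itpr2, 1 of 1 of Itpr3, 1 of 2 of Stim1, 2 of 2 of Orai1, 2 of 4 of Trpm7, 5 of 6 of Atp2a2, 2 of 2 of Camk2g, 0 of 7 of Camk2d and 3 of 3 of Ppp3ca. Just inside the limit lay Atp2a2 1437797_at with a mean of 3.22 and Stim1 1448320_at with 3.82, and just outside it Itpr2 1421678_at with 2.86 and Stim1 1436945_x_at with 2.77. The 12 probe sets below the limit had single-array values of -1.85 to 4.99. Camk2d, which encodes the delta form of the kinase, was among these with means of 0.1 to 2.7, so no level of Camk2d could be compared between groups. Levels were not compared between probe sets, because their brightness also depends on the probes.

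Maturation in adults, the comparison of MII with GV oocytes, changed the kinase and the entry channel in one direction and part of the release and calcineurin genes in the other. Camk2g and Orai1 fell, each in 1 of its 2 probe sets. Probe sets of Itpr2, Ppp3ca and Atp2a2 rose after quantile normalization, while other probe sets of the same genes did not pass the test, apart from Atp2a2 1452363_a_at, which fell in in vitro MII oocytes. In vitro MII oocytes had 8 of 21 tested member probe sets called against GV, 5 higher and 3 lower, or 38.1%, where 27.7% of all tested probe sets were called (16% higher, 11.7% lower). In vivo MII oocytes had 7 called against GV, 5 higher and 2 lower, or 33.3%, where 26.8% of all tested probe sets were called (15.7% higher, 11.1% lower). The members' share is near this background. The split followed the scaling, with 0 higher and 7 lower in in vitro MII and 0 and 3 in in vivo MII in the values as deposited, and 0 and 6, and 0 and 4, with median scaling over all probe sets. With median scaling over the tested probe sets it was 7 and 4 in in vitro MII and 7 and 2 in in vivo MII. Under these scalings, in that order, 27.7%, 25.7% and 31.5% of all tested probe sets were called in in vitro MII. For in vivo MII the shares were 15.6%, 22.6% and 32.1%. Both comparisons use the same 2 GV arrays. The median difference of the tested members was 0.66 for in vitro MII minus GV, beside 0.13 over all tested probe sets, and 0.02 for in vivo MII minus GV, beside 0.24.

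**Figure D1:**
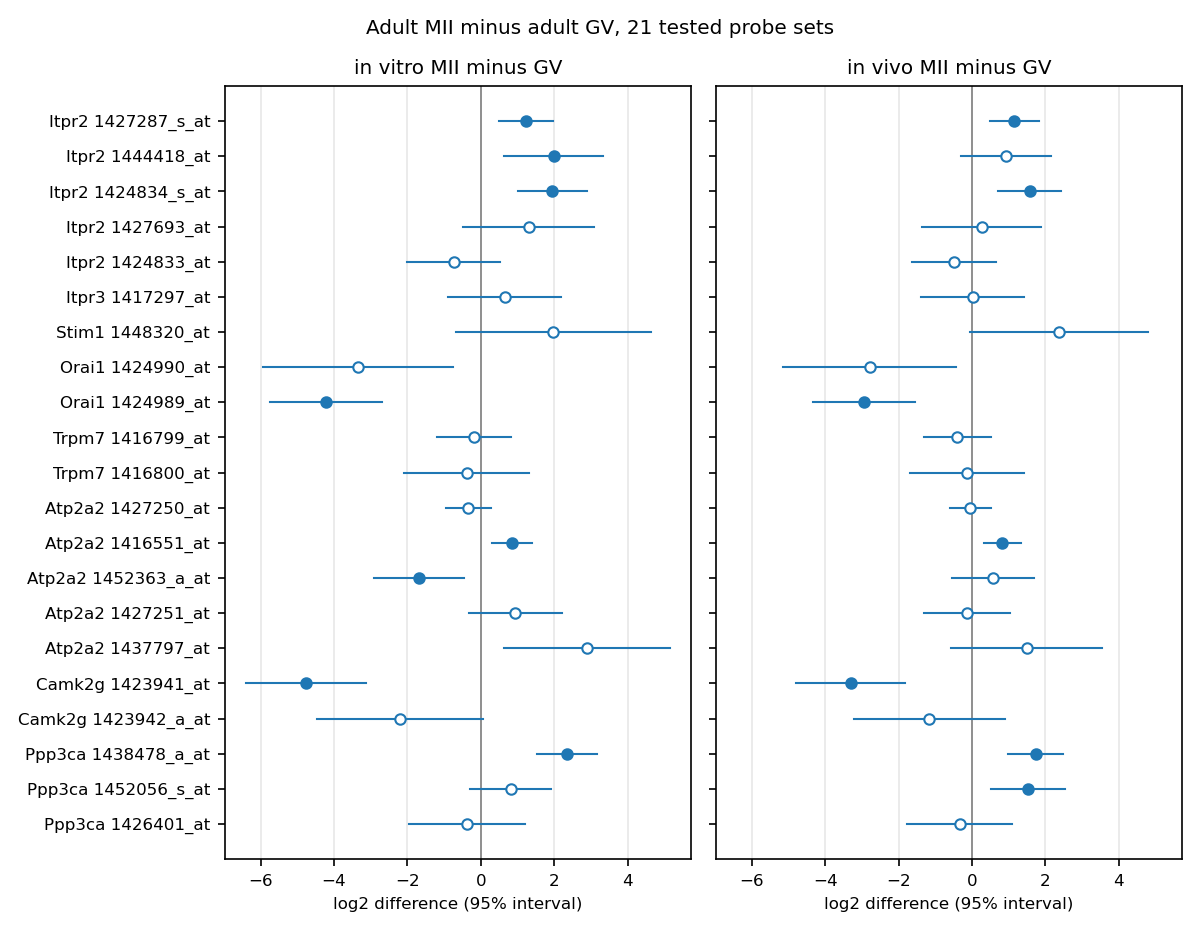
Log2 difference of adult MII minus adult GV oocytes for the 21 tested probe sets of calcium signalling genes, with in vitro MII on the left and in vivo MII on the right. Points are fitted differences, lines are 95% intervals and filled points passed an adjusted p of 0.05. Camk2g 1423941_at and Orai1 1424989_at lie furthest to the left among the filled points, and the rises of Itpr2, Ppp3ca and Atp2a2 1416551_at hold for quantile normalization and not for the values as deposited.

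The largest fall after quantile normalization of all arrays was that of Camk2g, the gamma form of the kinase, which mouse eggs need to leave metaphase II. Orai1 1424989_at fell further in the values as deposited, with both median scalings and without the 4 dim arrays. Probe set 1423941_at measured 6.54 and 4.59 in adult in vitro MII oocytes and 5.45, 8.08 and 7.55 in adult in vivo MII oocytes, against 10.22 and 10.45 in GV oocytes. It measured 7.84, 6.73 and 7.56 in d20 in vitro MII, 6.2, 5.68 and 6.48 in d26 in vitro MII, and 7.45 and 8.07 in d26 in vivo MII oocytes. All 13 MII arrays lay below both GV arrays, which held for 15.8% of all tested probe sets. Adult in vitro MII oocytes averaged 5.57 ± 1.38 (SD, n = 2), against 10.33 ± 0.17 in GV oocytes (n = 2), a fall of 27.2-fold (log2 difference -4.77, SE 0.76, limma adjusted p = 0.000376). In vivo MII oocytes averaged 7.02 ± 1.39 (n = 3), 9.92-fold below GV (log2 difference -3.31, SE 0.70, limma adjusted p = 0.00245).

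The same fall stood in the deposited intensities of 1423941_at, which were 73.4 and 11.25 in adult in vitro MII and 20.17, 443 and 289.4 in adult in vivo MII arrays, against 2490 and 2510 in the GV arrays. The lowest adult values, 11.25 and 20.17, belonged to dim arrays. Without the 4 dim arrays the difference was -3.70 for in vitro MII (adjusted p = 0.000278) and -2.41 for in vivo MII (adjusted p = 0.000638). Camk2g 1423941_at was called lower under 25 of 25 alternatives in both comparisons.

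The other probe set of Camk2g, 1423942_a_at, did not pass the test. It measured 6.66 and 4.69 in adult in vitro MII and 5.49, 7.32 and 7.33 in adult in vivo MII oocytes, against 7.54 and 8.21 in GV oocytes. The difference from GV was -2.20 for in vitro MII (95% interval -4.46 to 0.07, limma adjusted p = 0.147) and -1.16 for in vivo MII (-3.23 to 0.91, adjusted p = 0.445). Its values followed those of 1423941_at over the 15 arrays with a Pearson r of 0.74, although it lost less signal. The suffix _a_at marks a probe set that matches several transcripts of one gene. Which Camk2g transcripts each probe set reads was not analysed here.

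Orai1, the pore of the store-operated calcium channel in the plasma membrane, also fell in both comparisons. Probe set 1424989_at measured 3.39 and 3.16 in adult in vitro MII and 3.79, 5.14 and 4.72 in adult in vivo MII oocytes, against 7.50 and 7.48 in GV oocytes. In younger mice it measured 3.14, 4.12 and 4.31 in d20 in vitro MII, 3.76, 5.71 and 4.29 in d26 in vitro MII, and 4.75 and 4.64 in d26 in vivo MII oocytes. The MII and GV arrays did not overlap, with 5.71 in the highest MII array and 7.48 in the lowest GV array. In vitro MII oocytes averaged 3.27 ± 0.16 (SD, n = 2), against 7.49 ± 0.02 in GV oocytes (n = 2), 18.5-fold lower (log2 difference -4.21, SE 0.71, limma adjusted p = 0.000549). In vivo MII oocytes averaged 4.55 ± 0.69 (n = 3), 7.65-fold below GV (log2 difference -2.94, SE 0.65, adjusted p = 0.00348). The call held under 25 of 25 alternatives in both comparisons.

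Orai1 1424990_at also lay lower in every MII array than in GV, but with a wide spread. It measured 4.66 and 3.29 in adult in vitro MII and 2.64, 6.72 and 4.22 in adult in vivo MII oocytes, against 7.05 and 7.57 in GV oocytes. The difference missed the threshold, at -3.34 for in vitro MII (SE 1.21, limma adjusted p = 0.053) and -2.79 for in vivo MII (SE 1.10, adjusted p = 0.0783). It passed with the values as deposited (-5.70, adjusted p = 0.0137, for in vitro MII and -4.46, adjusted p = 0.0453, for in vivo MII). Among MII arrays its lowest values, 2.64 and 3.29, were those of dim arrays, and the d20 in vitro MII values were 6.96, 5.03 and 5.93. The r between the 2 Orai1 probe sets was 0.43 over the 15 arrays.

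**Figure D2:**
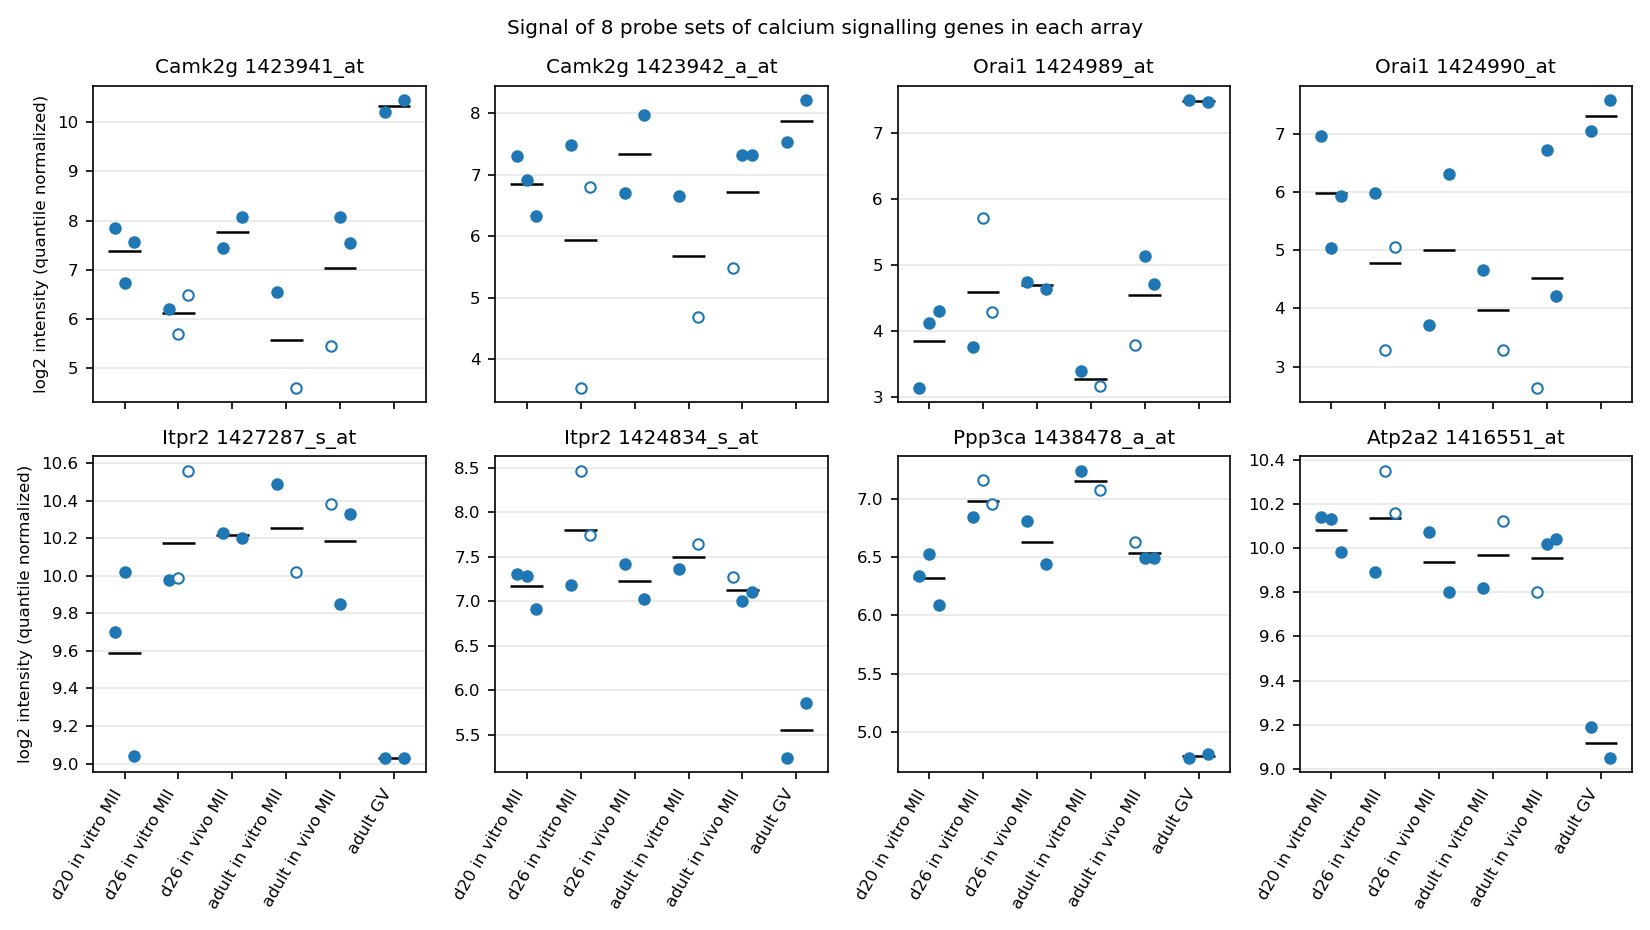
Quantile normalized log2 intensity of 8 probe sets of calcium signalling genes in each of the 15 arrays, by group, with group means as bars and the 4 dim arrays as open points. Camk2g 1423941_at and both Orai1 probe sets lie below the 2 GV arrays in every MII array, while Itpr2 1427287_s_at, Itpr2 1424834_s_at, Ppp3ca 1438478_a_at and Atp2a2 1416551_at lie above them on this scale, an order not kept by the values as deposited.

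Stim1, the calcium sensor of the endoplasmic reticulum that opens Orai1, went with no call. Its tested probe set 1448320_at measured 4.72 and 4.17 in adult in vitro MII and 5.82, 4.43 and 4.26 in adult in vivo MII oocytes, against 1.27 and 3.66 in GV oocytes. The GV arrays lay below those of the adult MII groups but far from each other. The difference was 1.98 for in vitro MII (95% interval -0.69 to 4.64, limma adjusted p = 0.277) and 2.37 for in vivo MII (-0.06 to 4.80, adjusted p = 0.15). The in vivo difference was 3.05 with an adjusted p of 0.0467 when arrays were scaled to the median of the tested probe sets.

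Trpm7, a calcium and magnesium channel with a kinase domain that serves calcium entry in mouse eggs, gave no call either. Probe set 1416799_at measured 7.21 and 7.09 in adult in vitro MII and 7.09, 6.78 and 6.92 in adult in vivo MII oocytes, against 7.69 and 6.97 in GV oocytes, and the groups overlapped. Its difference from GV was -0.18 for in vitro MII (95% interval -1.19 to 0.82) and -0.40 for in vivo MII (-1.32 to 0.51). With median scaling over all probe sets it was called lower (-1.59, adjusted p = 0.045, and -1.47, adjusted p = 0.0466). Probe set 1416800_at differed from GV by -0.38 (adjusted p = 0.777) in in vitro MII and -0.15 (adjusted p = 0.922) in in vivo MII oocytes. Trpm7 1416801_at was too dim for the test, with -0.15 to 4.32 in the MII arrays and 4.09 and 4.67 in the GV arrays.

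The IP3 receptors were read by 6 tested probe sets, 5 of them of Itpr2. Itpr2, the type 2 receptor, rose after quantile normalization in 3 of these 5 in in vitro MII and 2 of 5 in in vivo MII oocytes. Probe set 1427287_s_at measured 10.49 and 10.02 in adult in vitro MII and 10.38, 9.85 and 10.33 in adult in vivo MII oocytes, against 9.03 and 9.03 in GV oocytes. The adult groups were apart by more than their spread, but the lowest d20 in vitro MII array, at 9.04, was just above GV. The difference was 1.23 for in vitro MII (SE 0.34, limma adjusted p = 0.0145) and 1.16 for in vivo MII (SE 0.31, adjusted p = 0.0124). Neither call held when 1 GV array was left out (adjusted p = 0.0715 to 0.0735 for in vitro MII and 0.0764 to 0.0809 for in vivo MII), nor the in vitro call without adult in vitro MII replicate 1 (adjusted p = 0.1).

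Itpr2 1424834_s_at measured 7.36 and 7.64 in adult in vitro MII and 7.27, 7.00 and 7.10 in adult in vivo MII oocytes, against 5.24 and 5.86 in GV oocytes. In d20 in vitro MII it measured 7.31, 7.29 and 6.91, in d26 in vitro MII 7.18, 8.47 and 7.75, and in d26 in vivo MII 7.42 and 7.03. No MII array of any age reached down to the GV level. The difference was 1.95 for in vitro MII (SE 0.44, limma adjusted p = 0.00391) and 1.57 for in vivo MII (SE 0.40, adjusted p = 0.00879), and without GV replicate 1 the adjusted p was 0.0531 and 0.123. Both probe sets carry the suffix _s_at, which marks probes that match more than one transcript.

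Itpr2 1444418_at measured 8.10 and 8.58 in adult in vitro MII and 8.49, 6.37 and 6.99 in adult in vivo MII oocytes, against 6.48 and 6.23 in GV oocytes. It was called for in vitro MII (difference 1.99, SE 0.63, limma adjusted p = 0.0283) and not for in vivo MII (0.93, 95% interval -0.30 to 2.16, adjusted p = 0.277), whose arrays overlapped with GV. Leaving out any one of the adult in vitro MII or GV arrays ended the in vitro call (adjusted p = 0.0535 to 0.15). The remaining Itpr2 probe sets did not pass: 1427693_at differed from GV by 1.30 in in vitro MII and 0.26 in in vivo MII oocytes, and 1424833_at by -0.74 and -0.49. The Itpr2 probe sets thus did not move as 1 group, since r over the 15 arrays was 0.70 between 1427287_s_at and 1424834_s_at, 0.75 between 1444418_at and 1424834_s_at, and -0.44 between 1427693_at and 1424833_at. Itpr3, the type 3 receptor, measured 5.15 and 5.86 in adult in vitro MII and 3.88, 5.42 and 5.31 in adult in vivo MII oocytes, against 4.82 and 4.89 in GV oocytes, with limma adjusted p-values of 0.566 and 0.991.

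Atp2a2 encodes SERCA2, the pump that refills the endoplasmic reticulum, and its probe sets gave unlike results. Probe set 1427250_at, at 12.61 and 11.90 in adult in vitro MII and 12.10, 12.72 and 12.81 in adult in vivo MII oocytes, against 12.65 and 12.53 in GV oocytes, was not called. Its difference was -0.34 for in vitro MII (95% interval -0.96 to 0.27) and -0.05 for in vivo MII (-0.61 to 0.51), but it turned to a called rise of 1.16 and 1.22 (adjusted p = 0.0204 and 0.00913) when arrays were scaled to the median of the tested probe sets. Probe set 1416551_at measured 9.82 and 10.12 in adult in vitro MII and 9.80, 10.02 and 10.04 in adult in vivo MII oocytes, against 9.19 and 9.05 in GV oocytes. All 13 MII arrays, from 9.80 to 10.35, lay above GV on this scale. It was called higher by 0.85 in in vitro MII (SE 0.26, limma adjusted p = 0.023) and by 0.83 in in vivo MII oocytes (SE 0.24, adjusted p = 0.0162). Without either GV replicate the adjusted p was 0.0742 and 0.136 for in vitro MII and 0.0675 and 0.13 for in vivo MII, and without adult in vitro MII replicate 2 it was 0.147 for in vitro MII.

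Atp2a2 1452363_a_at had its lowest group mean in adult in vitro MII oocytes. It measured 4.86 and 4.27 there and 5.73, 7.51 and 7.22 in adult in vivo MII oocytes, against 6.27 and 6.23 in GV oocytes. The fall against GV was called in in vitro MII (difference -1.69, SE 0.57, limma adjusted p = 0.0385), and the in vivo difference was 0.57 (95% interval -0.54 to 1.68, adjusted p = 0.492). Leaving out 1 array could end that call, with an adjusted p of 0.186 without adult in vitro MII replicate 2, 0.154 without either GV replicate, and 0.05 to 0.0552 without any of the d20 replicates or d26 in vivo MII replicate 2. The dimmest tested member, 1437797_at, differed from GV by 2.89 in in vitro MII (adjusted p = 0.0544) and by 1.5 in in vivo MII oocytes (adjusted p = 0.301), and 1427251_at by 0.95 and -0.14. Over the 15 arrays r was 0.72 between 1427250_at and 1452363_a_at and -0.24 between 1427250_at and 1416551_at.

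Ppp3ca, the alpha catalytic subunit of calcineurin, rose in 1 of its 3 probe sets in in vitro MII and 2 of 3 in in vivo MII oocytes after quantile normalization. Probe set 1438478_a_at measured 7.24 and 7.07 in adult in vitro MII and 6.63, 6.49 and 6.49 in adult in vivo MII oocytes, against 4.78 and 4.81 in GV oocytes. It measured 6.34, 6.53 and 6.09 in d20 in vitro MII, 6.84, 7.16 and 6.95 in d26 in vitro MII, and 6.81 and 6.44 in d26 in vivo MII oocytes. The replicates were close within each group and every MII array lay above GV on this scale. The difference was 2.36 for in vitro MII (SE 0.38, limma adjusted p = 0.00041) and 1.74 for in vivo MII (SE 0.35, adjusted p = 0.00179).

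Ppp3ca 1452056_s_at measured 6.41 and 5.57 in adult in vitro MII and 7.29, 6.10 and 6.74 in adult in vivo MII oocytes, against 5.46 and 4.90 in GV oocytes. It was called in in vivo MII (difference 1.53, SE 0.47, limma adjusted p = 0.0254) and not in in vitro MII (0.82, 95% interval -0.29 to 1.92, adjusted p = 0.281). Its adjusted p rose to between 0.0603 and 0.219 when adult in vivo MII replicate 1 or 3 or either GV replicate was left out. Probe set 1426401_at differed by -0.38 and -0.34 with adjusted p-values of 0.761 and 0.786. Its r with the other Ppp3ca probe sets was -0.17 and -0.13 over the 15 arrays.

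Over all ages, 5 tested member probe sets lay above both GV arrays in each of the 13 MII arrays, where 18% of all tested probe sets did so. These were Itpr2 1427287_s_at and 1424834_s_at, Ppp3ca 1438478_a_at and 1452056_s_at, and Atp2a2 1416551_at. Below both GV arrays in each of the 13 lay 3, the 2 of Orai1 and Camk2g 1423941_at, where 15.8% of all tested probe sets did so. Both counts are near these background shares.

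How the arrays were scaled decided whether the rises were called, while the called falls stayed called under each scaling. The called rises changed sign in the values as deposited alone, apart from Ppp3ca 1438478_a_at in in vivo MII, which stayed above GV. The median tested probe set differed between in vitro MII and GV by 0.13 after quantile normalization, -1.94 in the values as deposited, -0.53 after median scaling over all probe sets and 0.57 after median scaling over the tested ones. For in vivo MII these medians were 0.24, -0.98, -0.21 and 0.68. In the values as deposited, Itpr2 1427287_s_at differed from GV by -0.91 in in vitro MII and -0.08 in in vivo MII, 1424834_s_at by -0.94 and -0.33, and Atp2a2 1416551_at by -1.27 and -0.42, none of them called. Ppp3ca 1438478_a_at differed by -0.21 and 0.15 there, with no call. Median scaling over all probe sets gave no call for these rises, and median scaling over the tested probe sets kept the calls of these 4 probe sets in both comparisons.

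The differences were also set against the median tested probe set of the same comparison. The values as deposited and both median scalings differ by a constant per array and so give 1 such relative value between them, beside the one after quantile normalization. Ppp3ca 1438478_a_at stood above that median by 2.23 after quantile normalization and 1.73 otherwise in in vitro MII, and by 1.5 and 1.13 in in vivo MII oocytes. For Itpr2 1427287_s_at the values were 1.10 and 1.03 in in vitro MII and 0.92 and 0.90 in in vivo MII, for 1424834_s_at 1.82 and 1.00, and 1.33 and 0.66, and for Atp2a2 1416551_at 0.72 and 0.67, and 0.59 and 0.56. Camk2g 1423941_at lay at -4.90 and -4.50 in in vitro MII and -3.55 and -3.21 in in vivo MII oocytes, and Orai1 1424989_at at -4.34 and -4.54, and -3.18 and -3.59.

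**Figure D3:**
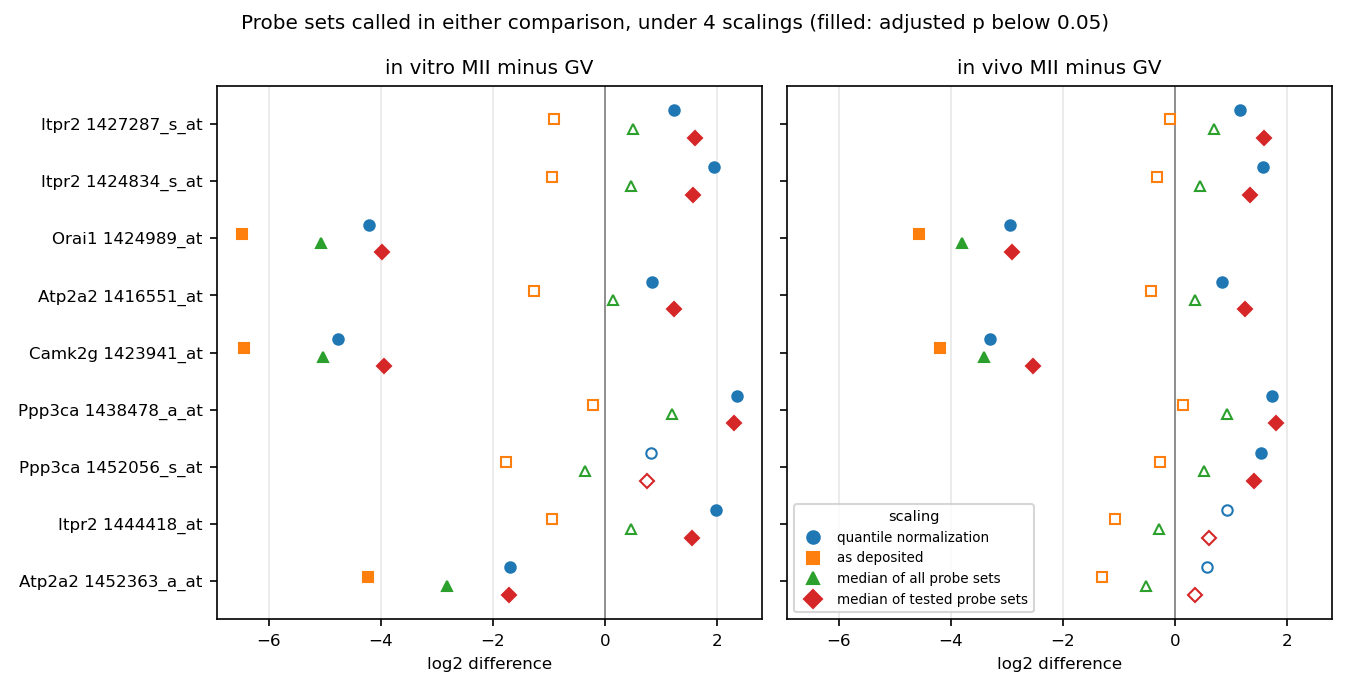
Log2 difference of adult MII minus adult GV oocytes under 4 ways of scaling the arrays, for the 9 probe sets called in either comparison, with in vitro MII on the left and in vivo MII on the right. Filled symbols passed an adjusted p of 0.05. Camk2g 1423941_at and Orai1 1424989_at stay left of 0 and filled under each scaling, while the Itpr2, Ppp3ca and Atp2a2 1416551_at symbols move between a rise and values near or below 0.

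Culture and age were asked of MII oocytes alone, and no member was called in any of the 7 comparisons among them. For in vitro minus in vivo MII, limma called 0 of 21 members in adults (background 0.00444% of tested probe sets), 0 at d26 (0.04%) and 0 for the mean of both ages (0.226%). At an unadjusted p below 0.05 there were 1, 1 and 3 members, where 8%, 6.8% and 12.4% of all tested probe sets passed. The difference between these effects in adults and at d26 was called for 0 members (0%), with 1 at an unadjusted p below 0.05 (3.73% of all). For age among in vitro MII oocytes 0 members were called for d26 minus d20 (0%), adult minus d20 (0.0222%) and adult minus d26 (0.00444%), with 0, 5 and 2 at an unadjusted p below 0.05 (11.5%, 17.6% and 7.34% of all). A moderated F-test of limma over the 5 MII groups, added with these data in view, called 0 of 21 members (0.0977% of all tested probe sets), with a smallest adjusted p of 0.212 and 2 members at an unadjusted p below 0.05.

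Atp2a2 1452363_a_at came closest to a call. It averaged 4.56 ± 0.42 in adult in vitro MII oocytes (SD, n = 2), against 6.82 ± 0.95 in adult in vivo MII oocytes (n = 3), a difference of -2.26 (95% interval -3.37 to -1.15, limma adjusted p = 0.312). In d26 oocytes the values were 6.71, 5.54 and 6.03 in vitro, against 6.68 and 7.09 in vivo, a difference of -0.79 (-1.90 to 0.33, adjusted p = 0.796). Across ages in vitro it averaged 6.91 ± 0.02 in d20, 6.10 ± 0.59 in d26 and 4.56 ± 0.42 in adult oocytes (n = 3, 3 and 2). The adult minus d20 difference was -2.34 (-3.46 to -1.23, adjusted p = 0.106). The other tested Atp2a2 probe sets went different ways between adult in vitro and in vivo MII oocytes. In vitro 1427251_at averaged 5.58, against 4.5 in vivo, and 1437797_at 4.67, against 3.28. For 1416551_at the means were 9.97 and 9.95, and for 1427250_at 12.25 and 12.54.

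Without the 4 dim arrays Atp2a2 1452363_a_at differed by -2.71 for adult in vitro minus in vivo MII. The difference was -1.44 for the mean over both ages and -2.24 for adult minus d20. That fit rests on 1 adult in vitro MII array, which is assumed to vary like the other groups. Its calls for these comparisons, more frequent over all tested probe sets than in the fit to all arrays, are not given. Leaving out adult in vivo MII replicate 1 alone gave calls for the mean over both ages (-1.83, limma adjusted p = 0.0173) and for adult minus d20 (-2.39, adjusted p = 0.0337). In that fit 0.879% and 0.377% of all tested probe sets were called, beside 0.226% and 0.0222% with all arrays. Leaving out adult in vitro MII replicate 1 gave -2.65 for adult minus d20, which rests on the single dim adult in vitro MII array left, under the same assumption.

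Camk2g 1423941_at was lower in vitro than in vivo at both ages by values that did not pass the test. In d26 oocytes it averaged 6.12 ± 0.41 in vitro (SD, n = 3), against 7.76 ± 0.44 in vivo (n = 2), and the arrays did not overlap. That difference was -1.64 (95% interval -3.13 to -0.15, limma adjusted p = 0.686), and in adults, where the arrays overlapped, it was -1.46 (-2.95 to 0.03, adjusted p = 0.628). For the mean over both ages it was -1.55 (-2.60 to -0.50, adjusted p = 0.243), and it was called at -1.97 (adjusted p = 0.0365) without adult in vivo MII replicate 1. Between ages in vitro, Camk2g 1423941_at averaged 7.38 ± 0.57 in d20, 6.12 ± 0.41 in d26 and 5.57 ± 1.38 in adult oocytes, with an adult minus d20 difference of -1.81 (-3.30 to -0.32, adjusted p = 0.222). Of these 3 groups the d20 group holds none of the dim arrays, d26 holds 2 and adult holds 1.

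The other members gave wide intervals in these comparisons. For adult in vitro minus in vivo MII the difference was -1.28 for Orai1 1424989_at (95% interval -2.67 to 0.11), 0.07 for Itpr2 1427287_s_at (-0.60 to 0.74) and 0.62 for Ppp3ca 1438478_a_at (-0.13 to 1.37). Narrowest was Atp2a2 1416551_at, with 0.02 in adults (-0.49 to 0.52) and 0.20 at d26 (-0.31 to 0.70). Stim1 1448320_at was among the widest, with -0.39 in adults (-2.82 to 2.04). It held 1 array at -0.04 in d20 in vitro MII, beside 4.32 and 3.66 in the other two.

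**Figure D4:**
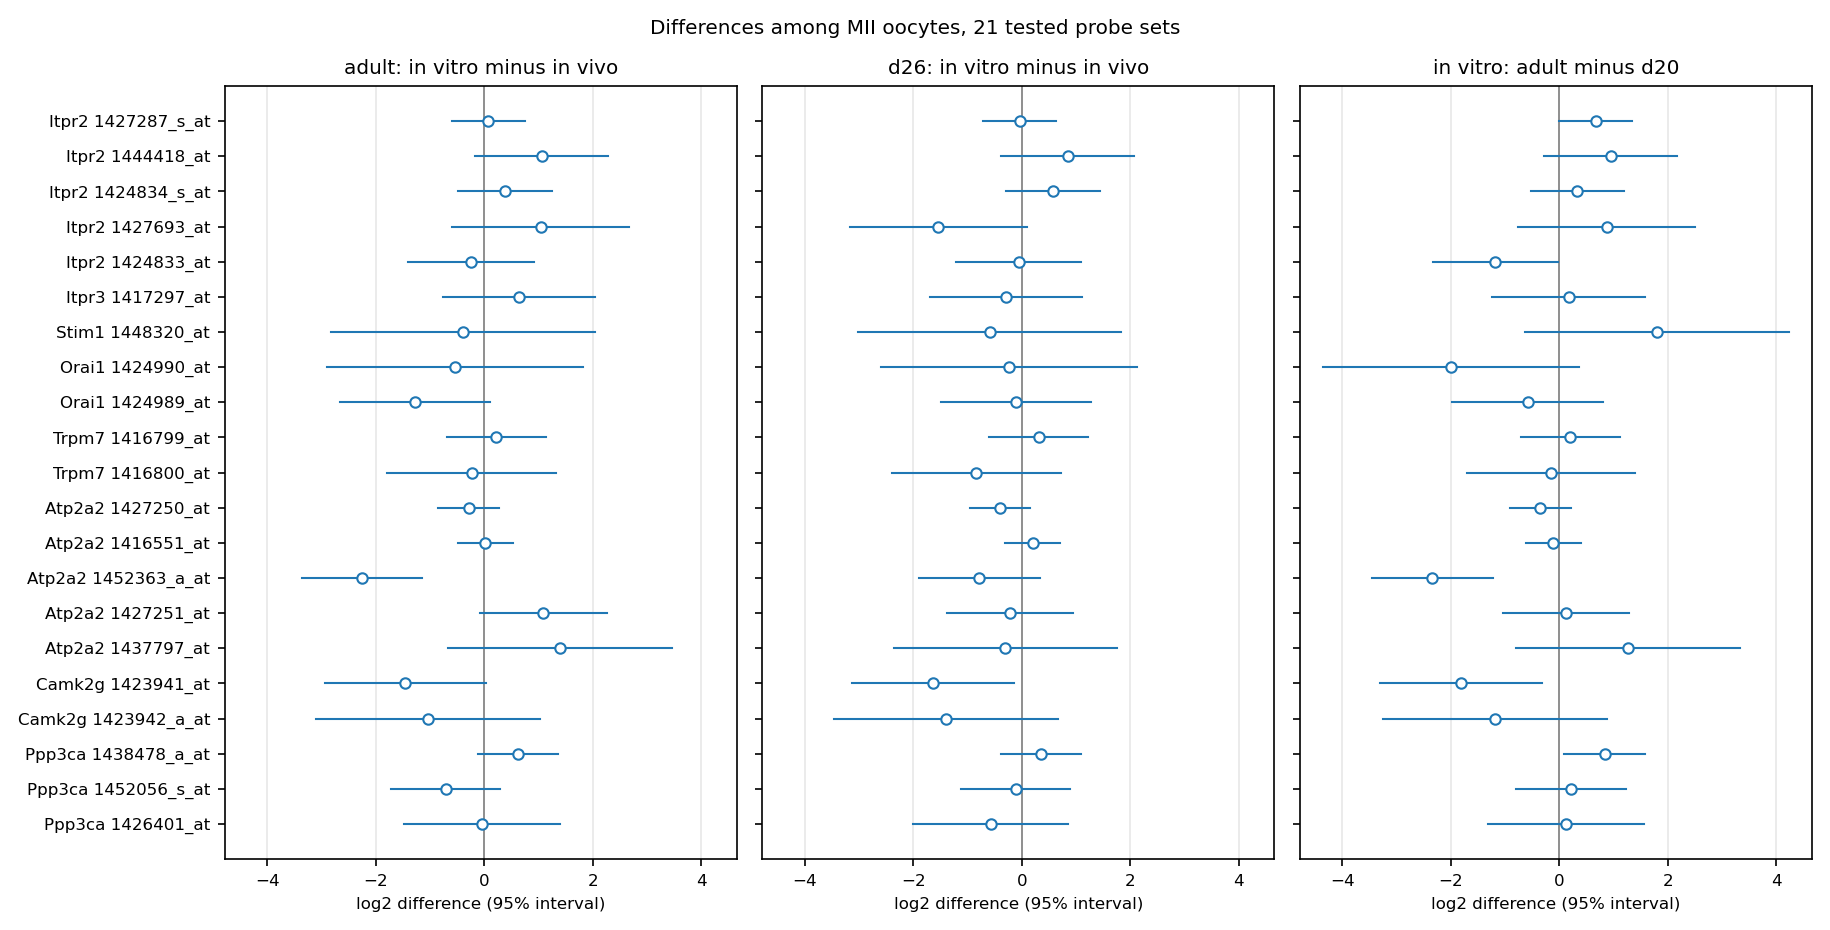
Log2 differences among MII oocytes for the 21 tested probe sets, with adult in vitro minus in vivo on the left, d26 in vitro minus in vivo in the middle and adult minus d20 in vitro on the right. Points are fitted differences and lines are 95% intervals. No point is filled, since none passed an adjusted p of 0.05, and the interval of Atp2a2 1452363_a_at lies furthest from 0 in the left panel.

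Other genes of calcium handling were read from 11 lists with 110 genes, of which 73 had a tested probe set, each gene by its brightest one. Against GV, 13 were called higher and 12 lower in in vitro MII oocytes and likewise 13 and 12 in in vivo MII oocytes, 34.2% each, where 31.3% and 30.6% of the 12028 tested genes were called. Their median difference was -0.20 for in vitro MII, beside 0.13 over all tested genes, and 0.25 for in vivo MII, beside 0.26.

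Of 8 tested calcium buffers and chaperones of the endoplasmic reticulum, 5 were called lower and 1 higher in in vitro MII and 6 lower and 1 higher in in vivo MII oocytes, where 12.9% and 12.3% of all tested genes were called lower, with 5 to 6 lower under each of the 4 scalings. Hspa5, the chaperone BiP, differed from GV by -5.32 in in vitro MII and -3.87 in in vivo MII oocytes (limma adjusted p = 0.000142 and 0.000638). Calr, the calcium-binding chaperone calreticulin, differed by -4.83 and -3.84 (adjusted p = 0.0151 and 0.0321). Rcn2, a calcium-binding protein of the secretory pathway, was the one called higher, by 1.26 and 1.19 (adjusted p = 0.00261 and 0.00213), though by -0.08 in vitro in the values as deposited.

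Of 10 tested genes of phospholipase C and phosphoinositide supply, 2 fell and 0 rose in each comparison, or 20%. Over all tested genes 31.3% were called in in vitro MII and 30.6% in in vivo MII oocytes. Plce1, phospholipase C epsilon, differed from GV by -4.54 in in vitro MII and -5.14 in in vivo MII oocytes (limma adjusted p = 5.63e-05 and 9.87e-06), and Pi4ka, a phosphatidylinositol 4-kinase, by -3.40 and -3.11 (adjusted p = 0.00136 and 0.00134). Of 5 genes of IP3 removal and receptor control, 1 rose and 1 fell in in vitro MII (40%) and 1 rose in in vivo MII oocytes (20%). Itprid2 rose by 1.61 and 1.96 (adjusted p = 0.0378 and 0.0083), with -1.25 in vitro in the values as deposited. Erp44, which restrains the type 1 receptor from within the store, was called lower in in vitro MII (-1.0, adjusted p = 0.041), with -0.20 in in vivo MII (adjusted p = 0.711), and the in vitro minus in vivo comparison did not call it. Tmco1, a channel against overfilling of the store, was the 1 called among 5 other release channels, or 20%. It differed by 1.10 and 0.96 (adjusted p = 0.0375 and 0.0481), but by -1.12 and -0.35 in the values as deposited.

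Beside Orai1, the 5 tested genes of calcium entry gave 0 limma calls in either comparison. At an unadjusted p below 0.05 there were 0 in in vitro MII and 2 in in vivo MII, where 40.8% and 40% of all tested genes passed. Of 5 pumps and exchangers 1 was called, or 20%, where 31.3% and 30.6% of all tested genes were called. It was Atp2c1, the pump of the Golgi, with 0.82 and 0.64 (limma adjusted p = 0.0161 and 0.0366) and with -0.48 in vitro in the values as deposited. Of 4 genes of mitochondrial uptake 1 was called in each comparison, or 25%. It was Micu2, a regulator of the uniporter, which fell by 1.94 on the log2 scale in in vitro MII and by 2.66 in in vivo MII oocytes (adjusted p = 0.00673 and 0.000417).

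Beside Camk2g, the 5 tested genes of calmodulin and its kinases gave 0 limma calls in both comparisons and 0 at an unadjusted p below 0.05. Of all tested genes 40.8% and 40% passed that unadjusted limit in in vitro and in vivo MII. Calcineurin genes had 2 higher and 1 lower of 9 in each comparison, or 33.3%, near the 31.3% and 30.6% of all tested genes. Ppp3cb, the beta catalytic subunit, rose by 1.93 in in vitro MII and 1.26 in in vivo MII oocytes (limma adjusted p = 0.00687 and 0.0437), and Rcan1, a regulator that can inhibit calcineurin, by 1.37 and 1.68 (adjusted p = 0.0295 and 0.00553). In the values as deposited both were below GV, with -0.99 and -0.70 for Ppp3cb and -1.52 and -0.23 for Rcan1, which was also below GV in in vitro MII with median scaling over all probe sets (-0.10). Nfatc2, a transcription factor that calcineurin dephosphorylates, fell (-4.72 and -3.25, adjusted p = 0.00224 and 0.0138).

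Of 6 protein kinase C genes 2 rose and 0 fell in each comparison, or 33.3%, near the 31.3% and 30.6% of all tested genes. Prkci, an atypical member of the family, differed by 1.93 in in vitro MII and 1.65 in in vivo MII oocytes (limma adjusted p = 4.67e-05 and 5.92e-05; -0.04 in vitro as deposited), and Marcks, a substrate at the membrane, by 3.10 and 2.40 (adjusted p = 0.000577 and 0.00177). Targets of egg activation and cortical granule genes had 5 higher and 2 lower of 11 in each comparison, or 63.6%. The difference of this share from that of all tested genes was not tested. Fbxo43, also called Emi2, which holds the metaphase II arrest and is marked for destruction through CaMKII, rose by 3.37 and 2.70 (adjusted p = 0.000726 and 0.00179). Among membrane fusion proteins, Vamp3 rose by 2.14 in in vitro MII and 1.85 in in vivo MII oocytes (adjusted p = 0.000356 and 0.000499), and Snap23 by 2.25 and 1.57 (adjusted p = 0.00224 and 0.0126), with -0.41 in vitro in the values as deposited for Snap23. Nsf, which recycles the fusion machinery, fell (-2.54 and -2.17, adjusted p = 0.00173 and 0.00277), as did the vesicle GTPase Rab27a (-1.87 and -1.71, adjusted p = 0.0138 and 0.0144).

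Among MII groups limma called 0 of these 73 genes in each of the 7 comparisons, with 0 to 16 at an unadjusted p below 0.05. Over all tested genes 3.48% to 19.2% passed that limit. The 16 were those of adult minus d20, where the share of all tested genes was 19.2%. Over the 12028 genes the called share was 0.249% for the mean of in vitro minus in vivo, 0.0582% for it at d26, 0.0333% for adult minus d20 and 0% for the other 4.

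The genes with array profiles most like those of the members were found over the 15 arrays. They are given for the brightest probe set of a gene, for the 3 genes where it had the widest range of group means. For Camk2g 1423941_at, with a range of 4.77, the nearest profiles were Rtcb (Pearson r = 0.957), Tle6 (0.956) and Dad1 (0.956). For Orai1 1424990_at, with a range of 3.34, they were Lrrc47 (0.953), Ccno (0.942) and Pold3 (0.931). For Stim1 1448320_at, with a range of 2.37, they were Atcayos (0.824), Kcna6 (0.815) and Wif1 (0.813). These coefficients are descriptions over arrays that share the 2 GV arrays and the 4 dim ones.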

How the data were processed

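Gene expression of oocyte pools was measured on 15 Affymetrix arrays. The deposited values are intensities, and the authors used MAS5 to make them, as the submitters' processing notes list it per the labels. Neither the version of MAS5 nor its target level is given in the sources used here. The 64 control probe sets were left out, and the log2 intensities were quantile normalized. Probe sets in the upper 50% by mean over the arrays were tested with limma 3.58.1 in R 4.3.3, in a fit to all 6 groups with 9 residual degrees of freedom. Variances were moderated along signal (trend), and p-values were adjusted by Benjamini-Hochberg within each comparison. Symbols came from the platform annotation.

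The members, pathway lists, marker lists and tests were chosen with earlier results of these data known, so patterns shown before are no independent support. The text gives values for each tested member probe set and for some of those below the filter. It also names up to 2 genes per pathway list and direction with the largest called differences from GV. Likeness is given for the 3 genes whose brightest probe set had the widest range of group means.

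Samples were grouped by title. Replicates were numbered in accession order, which pairs no arrays. No pair of arrays shared more than 0.00222% of its values. The number of arrays limits the precision. The fit was tested on simulated data, with changes in far fewer probe sets than were called in the data. There a log2 change of 1 was recovered for 0% in in vitro MII and 4.41% in in vivo MII against GV. For a change of 2 these were 21.2% and 27.3%, and for a change of 4 they were 53% and 54.5%. With fewer changed probe sets the adjusted threshold is harder to pass, so these shares do not give the recovery in the data. A missing call is still no sign of an unchanged level.

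Alternatives were the values as deposited, median scaling, a pseudocount of 3.04, no filter, the upper 30% of probe sets, fitting the compared arrays alone, no variance trend, array weights, removal of the 4 dim arrays and removal of each array in turn. Median scaling over the tested probe sets, the F-test and the pathway genes under these alternatives were added after seeing the data.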

Additional observations from a re-analysis of the deposited data

How the results depend on the processing

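Camk2g 1423941_at and Orai1 1424989_at kept their fall against GV under 25 of 25 alternatives, with adjusted p-values up to 0.0361 when 1 array was left out. The count of members called in in vitro MII against GV, 8 as reported, reached 10 at most when 1 array was left out. It fell without either GV replicate or adult in vitro MII replicate 2, as did the calls over all tested probe sets. Those fits leave a group with 1 array. For in vivo MII against GV, 7 as reported, it was 3 in the values as deposited and 4 with median scaling. There 15.6% and 22.6% of all tested probe sets were called, beside 26.8% as reported. The member count reached 8 at most when 1 array was left out and fell without either GV replicate, as did the calls over all tested probe sets. Without the 4 dim arrays the lone adult and d26 in vitro MII arrays are assumed to vary like the other groups. There Atp2a2 1452363_a_at differed by -2.71 in adults for in vitro minus in vivo, -1.44 for the mean over both ages and -2.24 for adult minus d20. As reported, no member was called for any of these. Array weights gave 1 member for the mean over both ages, where 0.471% of all tested probe sets were called. Leaving out 1 array gave 0 to 2 members for that mean and 0 to 1 for adult minus d20. Without adult in vivo MII replicate 1 the shares of all tested probe sets were 0.879% and 0.377%. In the values as deposited, differences from GV turned to -0.909 in in vitro MII and -0.083 in in vivo MII for Itpr2 1427287_s_at, -0.944 and -0.326 for 1424834_s_at, -1.274 and -0.421 for Atp2a2 1416551_at, -0.949 in vitro for Itpr2 1444418_at, -0.207 in vitro for Ppp3ca 1438478_a_at and -0.262 in vivo for 1452056_s_at. Pathway genes that turned there were Tmco1 (-1.115 in vitro, -0.351 in vivo), Ppp3cb (-0.99, -0.703), Rcan1 (-1.516, -0.226) and, in vitro, Itprid2 (-1.25), Atp2c1 (-0.481), Rcn2 (-0.079), Prkci (-0.035) and Snap23 (-0.412). Median scaling turned Rcan1 to -0.104 in vitro, and median scaling over the tested probe sets turned Atp2a2 1427250_at to 1.155 and 1.22. In the values as deposited the median tested probe set differed from GV by -1.942 in in vitro MII and -0.981 in in vivo MII. The cause of this shift and of the changes in sign or call was not tested. Over all tested probe sets, 3607 were higher and 2641 lower in in vitro MII against GV and 3542 and 2495 in in vivo MII. The splits were 11 and 6224, and 23 and 3481, in the values as deposited, 1315 and 4468, and 1205 and 3876, with median scaling, and 4567 and 2532, and 4707 and 2515, with median scaling over the tested probe sets. Array weights gave 10291 calls in in vivo MII, beside 6037 as reported. Of the member differences under the alternatives run, 318 kept a call and its sign, 48 lost a call, 41 gained one and 11 changed sign with a call on at least one side. Another 3977 were not called either way and kept their sign, and 294 were not called either way and changed it. Fits that leave a group with 1 array assume that it varies like the other groups. No paired analysis was possible because no label numbers the replicates within a group, and the numbers used here only name arrays. Dim arrays limit what low probe sets can show. Those of Camk2d were low in the GV arrays as well, with group means of -0.72 to 2.65.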
